A study of Mus musculus with 8 samples.

Results

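The sites described here are ASH2L binding sites of mouse fibroblasts that were centred just before the start of a protein-coding gene or of one of its transcripts. A site was taken when its centre lay 1 to 1000 bp upstream, in the sense of transcription, of the nearest transcription start site (TSS) of any transcript of a protein-coding gene, and when no other gene had a TSS on the opposite strand within 1 kb. Of the 6444 sites in the list, 713 met this rule and are called upstream sites below. They belonged to 665 of 21938 protein-coding genes (3.03%). Position alone chose them, so their distance from the TSS is described without a test.

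ASH2L was profiled by chromatin immunoprecipitation and sequencing (ChIP-seq) in iMEF cells, immortalised mouse embryo fibroblasts. All cells shared the same background. They carried floxed Ash2l alleles with an inducible Cre-ER recombinase, exon 4 of the endogenous gene had been deleted, and human ASH2L fused to an FKBP tag and HA epitopes was supplied by a lentivirus, in clones grown from individual cells. The 8 libraries formed 4 groups of 2 replicates, namely ASH2L precipitates and inputs from untreated cells and from cells treated for 1 h with dTAG, a degrader that links FKBP-tagged proteins to a ubiquitin ligase. The labels name Ash2l as the target of the antibody, whereas the study's methods describe antibodies against the HA epitope. The list pools all samples and gives a chromosome, a start and an end for each site in mm10. It shows no signal, replicate or read depth, nor any expression by which the labelled cell type could be checked, so the loss of ASH2L after dTAG was not analysed here, and no value below has a replicate error. Sites are not replicates of a condition. Confidence intervals (Wilson for a share, Newcombe for a difference of shares, both 95%) cover counting error only, and p-values describe this list.

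ASH2L is a core subunit, with WDR5, RBBP5 and DPY30, of the KMT2 or COMPASS complexes, which methylate lysine 4 of histone H3. The trimethylated form of this lysine marks active promoters and is usually strongest on the nucleosomes that follow the TSS, whereas the DNA just before the TSS is often free of nucleosomes and bound by transcription factors. Many mammalian promoters lie in CpG islands, stretches rich in unmethylated CpG dinucleotides, and KMT2 complexes contain subunits that bind such DNA. Promoters differ in the letters they offer to factors. ETS proteins, YY1, NFY, the CREB and ATF proteins that bind CRE, the AP-1 dimers of FOS and JUN and the TATA-binding protein each prefer a short sequence.

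The sequences around 6 of the motifs that set the upstream sites apart from another class of promoter site are shown first, since the comparisons below turn on these letters. Each is 120 bases of mm10 on the strand of the gene, 5′ to 3′, from the widest upstream site that held the motif in the 200 bp around its centre and had no annotated exon in the stretch. The capitals mark the match nearest to the centre of the site, in either orientation, and a further AP-1 match in the Fam107b stretch is in lower case. The ETS example came from the site of Tm9sf3 (chr19:41264011-41264130, minus strand), the YY1 example from Gnb1, which encodes a β subunit of heterotrimeric G proteins (chr4:155492351-155492470, plus strand), and the NFY example from Acta2, the smooth muscle actin of contractile cells and activated fibroblasts (chr19:34254636-34254755, minus strand). The CRE example came from Stk38l, a kinase gene (chr6:146724810-146724929, plus strand), the AP-1 example from Fam107b (chr2:3712561-3712680, plus strand) and the TATA example from Hoxa7, a homeobox gene of the HoxA cluster (chr6:52220428-52220547, minus strand).
ETS, Tm9sf3: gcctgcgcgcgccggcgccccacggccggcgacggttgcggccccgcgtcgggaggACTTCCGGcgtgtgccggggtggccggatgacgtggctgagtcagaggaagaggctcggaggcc
YY1, Gnb1: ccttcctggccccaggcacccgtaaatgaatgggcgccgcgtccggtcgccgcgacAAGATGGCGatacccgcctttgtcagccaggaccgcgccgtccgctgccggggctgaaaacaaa
NFY, Acta2: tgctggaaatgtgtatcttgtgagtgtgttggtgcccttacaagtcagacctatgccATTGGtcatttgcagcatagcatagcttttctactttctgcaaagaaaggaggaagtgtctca
CRE, Stk38l: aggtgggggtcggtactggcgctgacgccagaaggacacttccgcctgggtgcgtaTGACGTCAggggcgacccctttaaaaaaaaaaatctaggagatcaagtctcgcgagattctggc
AP-1, Fam107b: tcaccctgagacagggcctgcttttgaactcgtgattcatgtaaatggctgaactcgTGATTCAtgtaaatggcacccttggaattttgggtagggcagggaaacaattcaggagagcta
TATA, Hoxa7: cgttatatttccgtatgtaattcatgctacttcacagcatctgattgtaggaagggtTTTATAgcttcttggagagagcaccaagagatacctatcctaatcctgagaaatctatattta

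The 6 stretches differed in base composition. The Tm9sf3 stretch held 19 CpG dinucleotides at a GC content of 77.5%, and the Gnb1 stretch held 15 at 66.7%. The Stk38l stretch held 9 at 55.8%. The AP-1 stretch of Fam107b and the TATA stretch of Hoxa7 held 2 each, at 46.7% and 36.7%, and the NFY stretch of Acta2 held none, at 43.3%. The ETS motif of Tm9sf3 lay at −74 bp from the TSS and the CRE of Stk38l at −125 bp. The TATA letters of Hoxa7 lay at −95 bp, in the reverse orientation. The AP-1 motif of Fam107b was the most distant, at −837 bp.

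Upstream sites lay close to their TSS. The median distance of the centre was 90.0 bp, with quartiles of 28.0 and 271 bp. In 254 sites (35.6%) the centre was within 49 bp of the TSS, in 226 (31.7%) it was from 50 to less than 200 bp away and in 233 (32.7%) it was 200 bp or more away. Because sites have a width, 450 of the 713 (63.1%, interval 59.5 to 66.6%) extended over the TSS itself. The other 263 ended before it, with a median gap of 187 bp. The nearest centres lay 1 bp before a TSS and included those of Tsn, which encodes the nucleic acid binding protein translin, and Aqr, a helicase of the spliceosome. The farthest were at Asap1, a GTPase-activating protein gene, with 987 bp, at Rgmb, a co-receptor gene of BMP signalling, with 984 bp, and at Zfp622 with 983 bp. Just outside the rule, the sites of 5730455P16Rik, Tob1 and Ppp1r9b were centred on a TSS, and the sites of Asb3, Ncoa1 and Nrf1 lay at −1020, −1020 and −1022 bp.

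**Figure D1:**
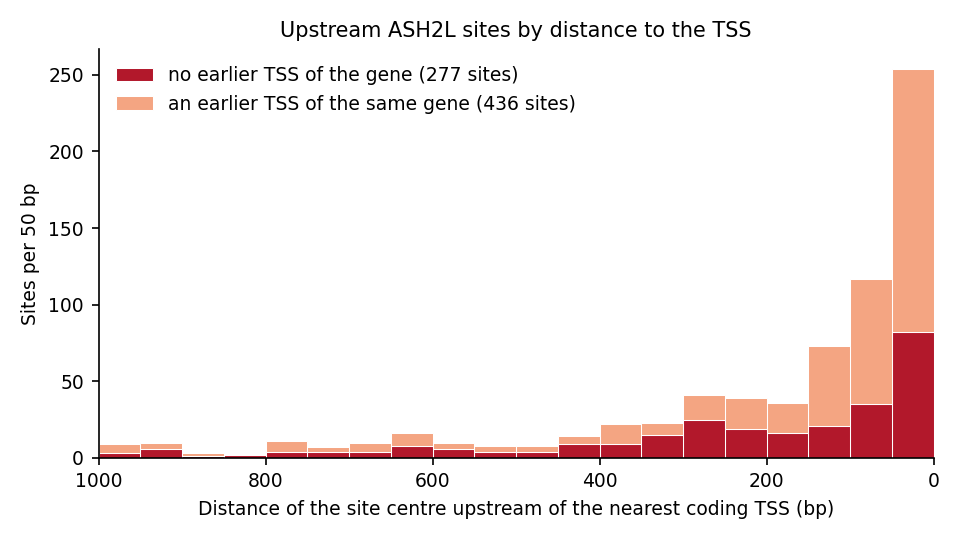
Number of upstream sites (vertical axis, sites per 50 bp) by the distance of the centre from the nearest coding TSS (horizontal axis, bp), stacked by whether the gene has an earlier annotated TSS. The sites crowd within 200 bp of the TSS, and 436 of the 713 follow an earlier TSS of the same gene.

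Upstream of the nearest TSS did not always mean upstream of the gene. For 436 of the 713 sites (61.2%, interval 57.5 to 64.7%) another annotated TSS of the same gene lay before the centre, at a median distance of 290 bp, and 277 sites (38.8%) had no earlier TSS. The earlier TSS was within 1 kb for 318 sites. Accordingly 260 centres fell in an annotated exon, 211 in an intron and 242 outside genes. The nearest TSS was that of a protein-coding transcript for 486 sites, and for 227 (31.8%) it started only transcripts of the gene that are annotated as noncoding. The genes with an upstream site had a median of 6 annotated TSSs, those of downstream sites 5 and all protein-coding genes 3. With the TSSs of RefSeq mRNAs, 629 of the sites were within 1 kb of a TSS, 360 of them upstream and 269 at or downstream of it. Only gene starts as TSSs left 278 sites upstream. The name upstream site thus refers to the nearest annotated TSS.

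The sites with and without an earlier TSS differed in where they lay. Those with no earlier TSS had a median distance of 152 bp, and 49.1% covered the TSS, whereas those after an earlier TSS had a median distance of 74.5 bp and 72.0% covered it. Their median widths were 269 and 307 bp. These subsets were formed after the values were seen and were not tested.

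Most upstream sites were narrow. The median width was 289 bp, with quartiles of 233 and 389 bp, and together they covered 265 kb. There were 72 sites (10.1%) at the minimum width of 200 bp, 98 sites (13.7%) were 500 bp or wider, and 19 were 1 kb or wider. All 19 of these covered the TSS and overlapped a CpG island, and 13 had another listed site within 2 kb. The widest, of 3845 bp on chromosome 6 (52231438 to 52235282), belonged to Hoxa10, a homeobox factor of the HoxA cluster, and was centred in an intron 36 bp before an internal TSS. The site of Cdkn2c, an inhibitor of the cell cycle kinases CDK4 and CDK6, spanned 2571 bp on chromosome 4 (109664736 to 109667306), with the centre 649 bp upstream. The site of Tfap2a, a transcription factor of neural crest and skin, spanned 2444 bp on chromosome 13 (40729337 to 40731780), with the centre 116 bp upstream. The predicted gene Gm43517, which has a single annotated TSS, was the nearest to a 2268-bp site (49383925 to 49386192 on chromosome 12). The nearest TSS of a RefSeq mRNA lay 2052 bp before the centre of this site. Nbea, which encodes a scaffold protein of membrane traffic, had a 2117-bp site (55786093 to 55788209 on chromosome 3), the centre of which fell in an exon. Of these 5 widest sites, only that of Gm43517 had no earlier TSS of the same gene.

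Upstream sites were compared with 3 other classes of sites at coding promoters. These were 688 sites centred on the nearest coding TSS or less than 150 bp downstream of it and 872 sites centred 150 to 1000 bp downstream, both chosen with the same rule on the opposite strand, and 431 bidirectional sites, which lay within 1 kb of coding TSSs of different genes on both strands. Promoter sites with only a noncoding gene's TSS on the opposite strand within 1 kb fell in none of the classes. Width, overlap with a CpG island and the presence of another site within 2 kb were compared by Fisher's exact test (two-sided). The Benjamini-Hochberg adjustment covered 12 tests. The classes span unlike distances from the TSS. Here and for the motifs below, side and distance cannot be told apart.

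Sites at the minimum width showed no difference past the threshold. The share was 8.43% for sites less than 150 bp downstream, 9.40% for sites 150 to 1000 bp downstream and 8.58% for bidirectional sites, against the upstream share of 10.1% (adjusted p = 0.467, 0.804 and 0.623 by Fisher's exact test). The intervals of the differences were −1.39 to 4.72, −2.22 to 3.70 and −2.11 to 4.85 percentage points. Wide sites were less frequent upstream than farther downstream. Of the sites 150 to 1000 bp downstream, 200 (22.9%) were 500 bp or wider, against the upstream share of 13.7% (upstream minus downstream −9.19 points, interval −12.9 to −5.38, adjusted p = 1.21e-05 by Fisher's exact test). The difference from sites less than 150 bp downstream was −0.0634 points (interval −3.69 to 3.55) and that from bidirectional sites −0.408 points (interval −4.71 to 3.62), neither of which passed the test.

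CpG islands were less frequent at upstream sites than at every compared class, although the difference from sites 150 to 1000 bp downstream depended on the setting. An island overlapped 603 of the 713 upstream sites (84.6%, interval 81.7 to 87.0%), 96.2% of sites less than 150 bp downstream (adjusted p = 2.99e-13, Fisher's exact test), 89.0% of sites 150 to 1000 bp downstream (adjusted p = 0.0212) and 98.6% of bidirectional sites (adjusted p = 2.41e-16). The difference from the sites 150 to 1000 bp downstream was the smallest, at −4.42 points (interval −7.84 to −1.08), and no longer passed without the opposite-strand exclusion (odds ratio 0.828, adjusted p = 0.393), with RefSeq TSSs (odds ratio 0.747, adjusted p = 0.222), with islands of at least 500 bp (odds ratio 0.749, adjusted p = 0.0600) or when the centre had to lie inside the island (odds ratio 0.916, adjusted p = 0.678). Within the upstream sites the share was 95.7% for centres 1 to 49 bp from the TSS, 88.5% from there to less than 200 bp and 68.7% at 200 to 1000 bp. The first of these stood beside the 96.2% of sites less than 150 bp downstream. The median number of CpG dinucleotides in 200 bp was 21, 20 and 9 in these bins.

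**Figure D2:**
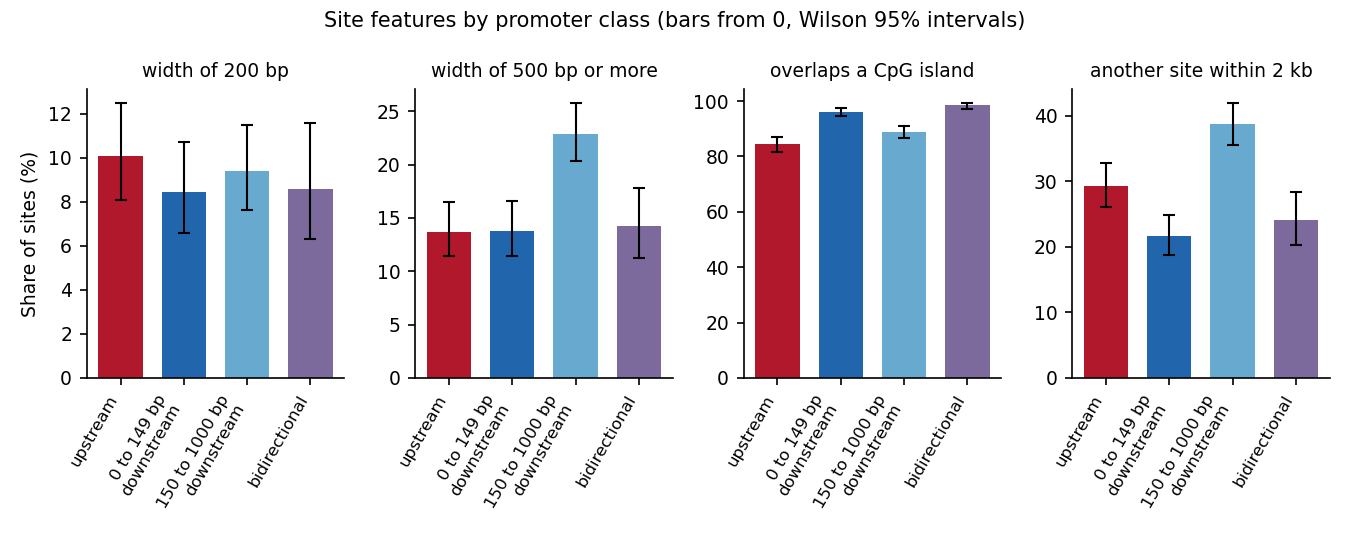
Share of sites in percent (vertical axes) in each promoter class (horizontal axes) for 4 features, with Wilson 95% intervals as error bars. Upstream sites have the lowest share with a CpG island, 84.6%, and a share of sites of 500 bp or wider that is below that of sites 150 to 1000 bp downstream, 13.7% against 22.9%.

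The 110 upstream sites without a CpG island lay farther from the TSS and were narrower. Their median distance from the TSS was 404 bp, against 71 bp for the 603 in islands, 22.7% of them covered the TSS against 70.5%, and their median width was 244 bp against 300 bp. Asap1, above, was 1 of them. They were split after the values were seen and were not tested.

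The CpG density around the TSSs themselves differed between the classes on the flanks. Around the 703 TSSs nearest to upstream sites the mean density was highest in the 100 bp before the TSS, at 9.62 CpG per 100 bp, and had fallen to 5.00 in the bin from −500 bp and to 5.15 in the bin from 400 bp. Around the TSSs of sites 150 to 1000 bp downstream it was 4.82 and 8.03 in the same bins, around those of sites less than 150 bp downstream 3.77 and 5.92, and around those of bidirectional sites 6.19 and 5.08. The bidirectional sites also had their highest density in the 100 bp before the TSS (10.3). Around the TSSs of sites 150 to 1000 bp downstream the density was flat, between 10.4 and 10.6 from 100 bp before the TSS to 300 bp after it, and for sites less than 150 bp downstream it was highest in the bin from 100 bp (10.9). The islands that overlapped upstream sites had their midpoint before the TSS in 282 of 603 cases (46.8%), against 25.5% for sites less than 150 bp downstream, 19.6% for sites 150 to 1000 bp downstream and 56.9% for bidirectional sites. The position of an island and that of the site inside it are not independent, and no test was made.

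**Figure D3:**
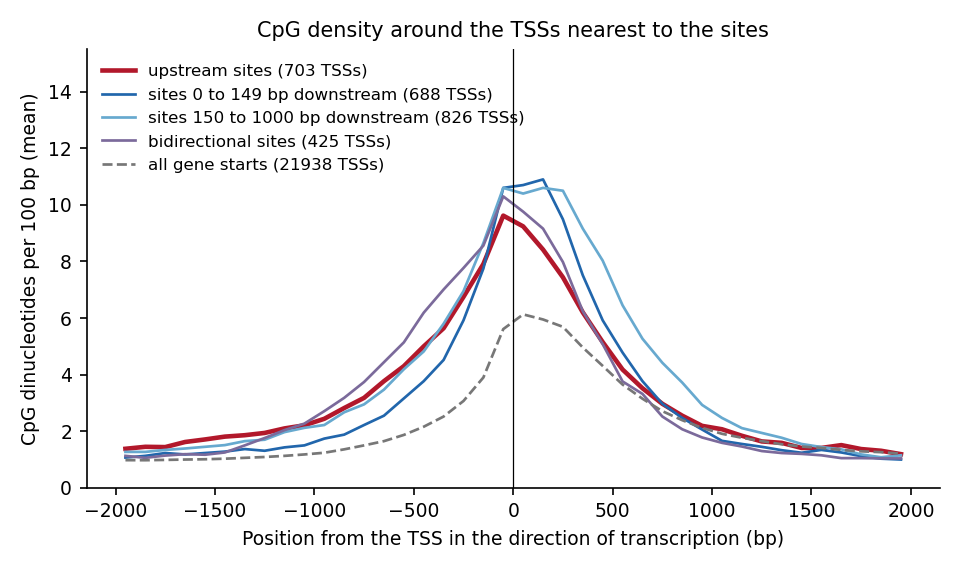
Mean number of CpG dinucleotides per 100 bp (vertical axis) by position from the TSS in the direction of transcription (horizontal axis, bp), for the TSSs nearest to each class of site and for the starts of all 21938 protein-coding genes. The curves of upstream sites (9.62) and bidirectional sites (10.3) are highest just before the TSS, that of sites 150 to 1000 bp downstream is flat between 10.4 and 10.6 across it, and in the bin from 400 bp they stand at 5.15, 5.08 and 8.03.

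Neighbouring sites were common. Another listed site lay within 2 kb of 209 upstream sites (29.3%), compared with 21.7% of sites less than 150 bp downstream (difference 7.66 points, interval 3.09 to 12.2, adjusted p = 0.00277 by Fisher's exact test) and 38.8% of sites 150 to 1000 bp downstream (difference −9.45 points, interval −14.0 to −4.76, adjusted p = 2.54e-04). The difference from sites 150 to 1000 bp downstream depended on the TSSs and the limit. It turned when only gene starts were taken (odds ratio 1.15, adjusted p = 0.374), and no longer passed with coding transcripts only (odds ratio 0.833, adjusted p = 0.198), RefSeq TSSs (0.866, adjusted p = 0.343) or a limit of 50 to 1000 bp (0.912, adjusted p = 0.571). The difference from bidirectional sites, 5.18 points, did not pass (interval −0.156 to 10.3, adjusted p = 0.111), and this call depended on the TSSs and the limit too. It passed with coding transcripts only (adjusted p = 0.0416), gene starts only (0.0133), a limit of 50 to 1000 bp (1.45e-04) and RefSeq TSSs (0.0193). Of the 665 genes, 142 (21.4%) also had a site in 1 of the downstream classes, and 48 of 703 TSSs (6.83%) had a site on both sides.

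More than 1 upstream site was found at 42 of the 665 genes. Tcf4, a basic helix-loop-helix factor gene with 58 annotated TSSs, had 4, of which 3 lay between 69344337 and 69347134 on chromosome 18 and 1 at 69415550 to 69415854. Tmpo, which encodes proteins of the nuclear lamina, also had 4, in clusters at 91170366 to 91171604 and at 91181463 to 91182221 on chromosome 10. Bnc2 and Trps1, both zinc finger factor genes of mesenchymal cells, had 3 each. The sites of Bnc2 were 462, 340 and 1874 bp wide, and only the last, at the gene's outermost TSS, overlapped a CpG island. The sites of Trps1 were 262, 287 and 234 bp wide, and only the last, also at the outermost TSS, overlapped one. Tfap2a had 2, the wide site described above and one of 725 bp centred 901 bp upstream of another TSS. These genes have between 8 and 58 annotated TSSs, beside a median of 6 for genes with an upstream site and 3 for all protein-coding genes. Whether the number of sites goes with the number of TSSs was not tested.

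Short motifs were then counted in the 200 bp around each centre, on both strands. The letters searched were CCGGAAGT (ETS), AAGATGGCG (YY1), GCGCATGCG (NRF1), CCAAT (NFY), CCCCGCCCC (SP/KLF), TGACGTCA (CRE), CACGTG (E-box), TGANTCA (AP-1), ACTACAANT (ZNF143) and, for the TATA box, TATAAA, and none of these contains another. A match is a description of the sequence and not evidence that the factor binds. Of the 30 tests over 10 motifs and 3 classes, 8 passed after Benjamini-Hochberg adjustment, and in each of these the share was higher at upstream sites.

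ETS letters separated upstream sites from sites farther downstream. They were found in 54 upstream sites (7.57%) and in 6 of the 872 sites 150 to 1000 bp downstream (0.688%), an odds ratio of 11.8 (adjusted p = 3.41e-12, Fisher's exact test). The share was 6.69% for sites less than 150 bp downstream and 10.2% for bidirectional sites, and neither difference passed, with intervals of −1.84 to 3.61 and −6.29 to 0.692 points. The 60 matches lay at a median of −28.0 bp from the TSS, with 41 of them before it. Within the upstream sites the share was 13.8% for centres 1 to 49 bp away, 7.08% from there to less than 200 bp and 1.29% at 200 to 1000 bp. All 54 sites with the motif overlapped a CpG island.

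YY1 and CRE letters were also rarest in the sites 150 to 1000 bp downstream. YY1 letters were in 17 upstream sites (2.38%) and 0.688% of sites 150 to 1000 bp downstream (odds ratio 3.53, adjusted p = 0.0283), and the matches sat on the TSS, with a median of 4.00 bp and quartiles of −17.0 and 22.0 bp. Of the 17 sites, 16 had an earlier TSS of the same gene. The direction turned when the sites within 49 bp of the TSS were left out (odds ratio 0.950) and with gene starts only (odds ratio 0.237), and the difference did not pass with RefSeq TSSs (odds ratio 1.37, adjusted p = 0.667). CRE letters were in 10 upstream sites (1.40%) and in 1 of the 872 sites 150 to 1000 bp downstream (odds ratio 12.4, adjusted p = 0.0210). The CRE difference did not pass when the sites within 49 bp of the TSS were left out (odds ratio 1.90, adjusted p = 1.00) or with RefSeq TSSs (odds ratio 10.3, adjusted p = 0.0545). The 10 sites, named here after their values were seen, belonged to Osgepl1, Klc1, Cdadc1, Ppig, Gtpbp10, Ptpn11, Brca2, Stk38l, Zfp426 and Clasp2, and in all of them the centre was within 65 bp of the TSS and the site overlapped a CpG island. In windows of 100 bp neither YY1 (odds ratio 3.70, adjusted p = 0.162) nor CRE (odds ratio 6.15, adjusted p = 0.321) passed.

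NFY, AP-1 and TATA letters followed a different pattern. NFY letters were in 106 upstream sites (14.9%) and 7.41% of sites less than 150 bp downstream (odds ratio 2.18, adjusted p = 1.40e-04), and did not differ past the threshold from sites 150 to 1000 bp downstream (12%, adjusted p = 0.237) or bidirectional sites (10.7%, adjusted p = 0.140). The 117 matches lay at a median of −133 bp. Within the upstream sites the NFY share was 11.4% for centres 1 to 49 bp away, 16.4% from there to less than 200 bp and 17.2% farther away. TATA letters were in 30 upstream sites (4.21%) and 1.74% of sites less than 150 bp downstream (odds ratio 2.47, adjusted p = 0.0318), and passed against no other class. The 33 TATA matches were spread out, with a median of −210 bp and quartiles of −531 and −62.0 bp. Their share was 1.57% for centres 1 to 49 bp away, 4.87% from there to less than 200 bp and 6.44% farther away. AP-1 letters were the only ones that passed against all 3 classes. They were in 38 upstream sites (5.33%), 2.03% of sites less than 150 bp downstream (odds ratio 2.71, adjusted p = 0.00797), 2.75% of sites 150 to 1000 bp downstream (odds ratio 1.99, adjusted p = 0.0344) and 1.16% of bidirectional sites (odds ratio 4.80, adjusted p = 0.00167). With RefSeq TSSs the difference from sites 150 to 1000 bp downstream no longer passed (odds ratio 1.75, adjusted p = 0.149). In windows of 100 bp none of the AP-1 differences passed, with odds ratios of 2.52, 1.59 and 3.69 (adjusted p = 0.162, 0.591 and 0.162), nor did that of TATA (odds ratio 1.95, adjusted p = 0.591).

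**Figure D4:**
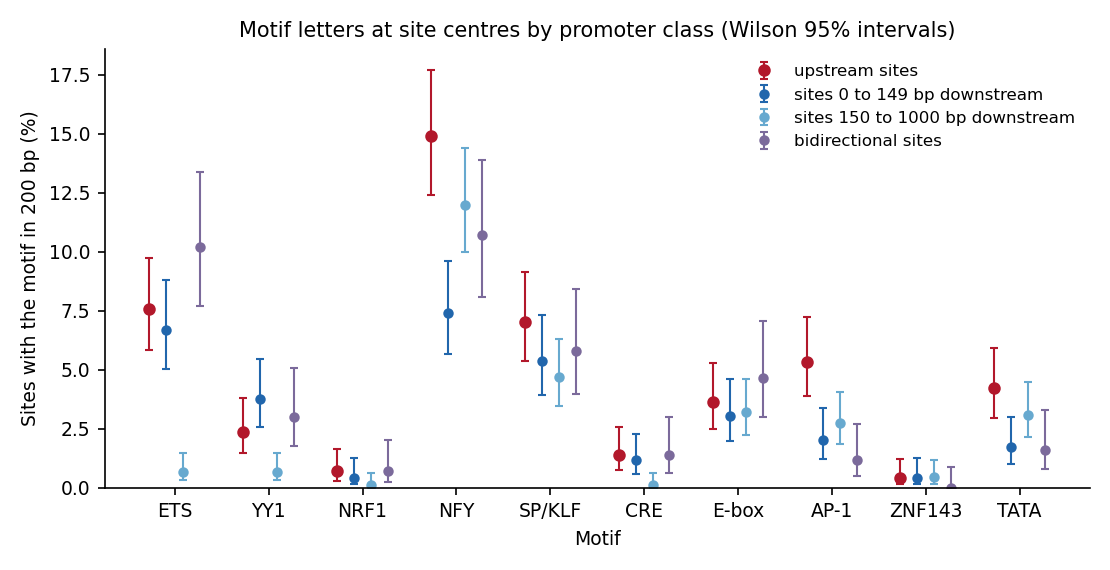
Share of sites in percent (vertical axis) with each of 10 motifs (horizontal axis) in the 200 bp around the centre, by promoter class, with Wilson 95% intervals as error bars. Upstream sites hold ETS letters in 7.57% and AP-1 letters in 5.33% of cases, whereas sites 150 to 1000 bp downstream hold them in 0.688% and 2.75%.

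The presence of a CpG island moved with the shares of these letters. Of the upstream sites without an island, 27.3% held NFY letters, 13.6% AP-1 letters and 11.8% TATA letters, compared with 12.6%, 3.81% and 2.82% of those in islands. When only sites in CpG islands were compared, the AP-1 odds ratio was 2.35 against sites less than 150 bp downstream (adjusted p = 0.0974) and 3.33 against bidirectional sites (adjusted p = 0.0537), and neither passed, nor did TATA against sites less than 150 bp downstream (odds ratio 2.37, adjusted p = 0.157). Within islands AP-1 still passed against sites 150 to 1000 bp downstream (odds ratio 2.76, adjusted p = 0.0297), and NFY against sites less than 150 bp downstream (odds ratio 1.80, adjusted p = 0.0183). The sites with AP-1 letters lay at a range of distances, and their 41 matches had quartiles of −628 and −71.0 bp. They included Runx2, a transcription factor gene of bone, and Inhba, which encodes a subunit of activin, both without a CpG island, and Actb, the cytoplasmic β-actin gene, within one. These 3 genes were chosen after their values were seen. The Tm9sf3 site, shown above for its ETS letters, also held AP-1 letters at −37 bp.

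The same letters were counted at a fixed place, the 200 bp before a TSS, once for each gene or site. Before the starts of all 21938 protein-coding genes the share was 3.04% for ETS, 0.570% for YY1, 1.97% for NRF1, 31.7% for NFY, 12.3% for SP/KLF, 1.86% for CRE, 5.65% for E-box, 4.81% for AP-1, 1.52% for ZNF143 and 9.29% for TATA. Of the 713 upstream sites, the share with the letters before their nearest TSS was 6.87% for ETS, 0.842% for YY1, 1.82% for NRF1, 18.5% for NFY, 11.6% for SP/KLF, 2.10% for CRE, 4.91% for E-box, 4.35% for AP-1, 0.701% for ZNF143 and 4.07% for TATA. ETS letters also stood before the nearest TSS of 4.13% of sites 150 to 1000 bp downstream, at whose centres the share was 0.688%, and of 10.2% of sites less than 150 bp downstream. AP-1 letters stood there for 2.18% and 1.89% of the sites of these classes. NFY letters stood there for 23.9% and 20.3%, YY1 letters for 2.75% and 1.74% and CRE letters for 2.18% and 2.91%. For NFY, YY1 and CRE the upstream share was thus the lower one at this place. TATA letters stood there for 4.47% and 3.63%. For bidirectional sites the shares were 12.8% (ETS), 1.39% (AP-1), 23.2% (NFY), 3.02% (YY1), 2.78% (CRE) and 3.02% (TATA). A window at the centre of a site 150 to 1000 bp downstream does not reach the DNA before the TSS, and the part of this displacement in the differences between the classes was not tested.

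The genes with an upstream site made up 3.03% of all 21938 protein-coding genes, and this share is the background for the gene lists. The lists were defined by gene symbols and were chosen with earlier results of these data known, so their counts are descriptions. Since any ASH2L site within 1 kb of a TSS was present at 14.0% of genes, a list rich in such sites also tends to hold more upstream ones.

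Among genes of protein synthesis with any promoter site, the share with an upstream one was 24.6% for cytosolic ribosomal proteins, 28.1% for translation factors and 21.9% for mitochondrial ribosomal proteins, beside 21.6% (665 of 3078) for all genes. Of 87 cytosolic ribosomal protein genes, 15 had an upstream site (17.2%, interval 10.7 to 26.5%), among 61 with any promoter site. Their 16 sites were close to the TSS, at a median of 59.5 bp, 15 covered it and 15 followed an earlier TSS of the same gene. The widest, of 981 bp, was at Rps20 (3834819 to 3835799 on chromosome 4), with the centre in an exon 76 bp before a TSS and 179 bp after an earlier one. Rpl37, with a site of 609 bp, was the only member of the list whose site had no earlier TSS. Of 68 translation initiation and elongation factor genes, 9 had an upstream site (13.2%) among 32 with any promoter site, and the widest spanned 1045 bp at Eef1a1, which brings aminoacyl-tRNAs to the ribosome. Of 78 mitochondrial ribosomal protein genes, 7 had one (8.97%) among 32 with any promoter site, all covering the TSS, with Mrpl11 the widest at 455 bp.

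Genes of chromatin and transcription were mixed. Of 28 genes listed by their symbols as SWI/SNF and CHD remodellers, 5 had an upstream site (17.9%, interval 7.88 to 35.6%). They were Arid1a, Chd2, Smarca2, Smarcad1 and Smarcd1, all after an earlier TSS, and a symbol does not establish membership of a complex. The KMT2 complexes contributed 2 of 19 genes (10.5%). The site of Setd1a, a catalytic subunit, spanned 824 bp on chromosome 7 (127776879 to 127777702) and covered a TSS 98 bp from its centre. The site of Ash2l spanned 375 bp on chromosome 8 (25840383 to 25840757), and an earlier TSS of the gene lay 192 bp before its centre. It lies at the endogenous gene, whereas the precipitated protein came from the lentiviral copy. Of 18 histone demethylase genes, only Kdm1a, which encodes the H3K4 demethylase LSD1, had an upstream site, of 289 bp on chromosome 4 (136602659 to 136602947), 80 bp before the outermost TSS. Of 104 genes of RNA polymerases, Mediator and general factors, 9 had one (8.65%), with Med23 the widest at 489 bp and Polr2a, the largest subunit of RNA polymerase II, at 448 bp. Only 2 of 55 splicing factor and hnRNP genes had one (3.64%), although 30 had some promoter site. The wider of them spanned 627 bp at Srsf11. Of listed genes with any promoter site, 29.4% of remodellers, 18.2% of KMT2 subunits and 14.3% of demethylases had an upstream one. The share was 22.5% for RNA polymerases, Mediator and general factors and 6.67% for splicing factors and hnRNPs, beside 21.6% over all genes.

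The Hox clusters held wide upstream sites, among them the widest of all 713. Of 39 Hox genes, 6 had an upstream site (15.4%, interval 7.25 to 29.7%). Of the 13 Hox genes with any promoter site, 46.2% had an upstream one, beside 21.6% over all genes. The 7 sites had a median width of 899 bp and a median distance of 461 bp. At Hoxa5, Hoxa7, Hoxa9 and Hoxa10 they were 257, 1177, 488 and 1377 (both at Hoxa9) and 3845 bp wide, and at Hoxd8 and Hoxd13 they were 665 and 899 bp wide. Each had another listed site within 440 bp. The forkhead and Sox factors had 2 genes of 63, with 2 sites at Foxp1 of 930 and 1192 bp and 1 at Foxc2 of 626 bp. Col1a1, the α1 chain of type I collagen and the only 1 of 45 collagen genes with an upstream site, had a site of 1760 bp (94936264 to 94938023 on chromosome 11) centred 542 bp before an internal TSS and 920 bp after the earlier TSS.

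**Figure D5:**
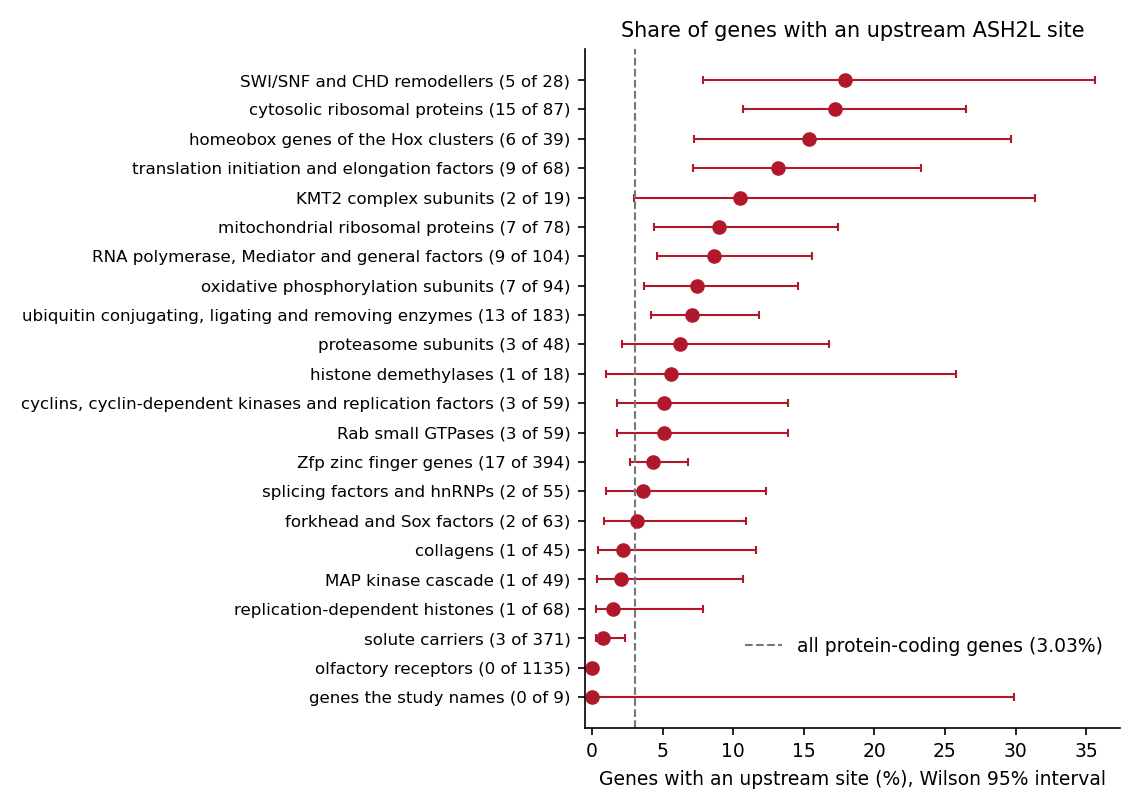
Share of the genes of each list with an upstream site in percent (horizontal axis), with the count in brackets and Wilson 95% intervals as error bars. The dashed line marks the 3.03% of all protein-coding genes, and the cytosolic ribosomal proteins, at 17.2%, lie to the right of it with their whole interval. The list of 9 genes labelled as named by the study leaves out Ash2l and includes Mga and Tbc1d1, which the study's text does not name.

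The other lists ranged from 0 to 7.45%. Oxidative phosphorylation subunits reached 7.45% (7 of 94, widest at Cox6c, 466 bp), ubiquitin enzymes 7.10% (13 of 183) and proteasome subunits 6.25% (3 of 48, widest at Psmd1, 547 bp). Of the genes in these lists with any promoter site, 19.4%, 22.4% and 18.8% had an upstream one, beside 21.6% over all genes. Cyclins, cyclin-dependent kinases and replication factors and the Rab GTPases had 3 of 59 genes each (5.08%), with Cdk13 at 401 bp and Rab23 at 397 bp. Zfp zinc finger genes had 17 of 394 (4.31%), with Zfp451 the widest at 441 bp, the MAP kinase cascade 1 of 49, Map2k5 at 461 bp, and the replication-dependent histones 1 of 68, Hist1h4k at 542 bp. Solute carriers lay below the background, with 3 of 371 genes (0.809%, interval 0.275 to 2.35%) and Slc1a3, a glutamate transporter, the widest at 391 bp. Any promoter site was present at 30 solute carrier genes (8.09%, beside 14.0% of all genes), and 10.0% of those had an upstream one. None of 1135 olfactory receptor genes had an upstream site. With 3 counts of the total as the limit, this allows a share of up to 0.264%. The Wilson interval drawn in the plot of gene lists ends at 0.337%. A list of 9 genes, drawn up as genes the study names, held Rspo2, Zfp503, Egr1, Rab8a, Nrf1, Mga, Tbc1d1, Il7 and Ppbp. It is not complete and leaves out Ash2l, and Mga and Tbc1d1 do not occur in the study's text. None of the 9 had an upstream site, which by the same limit allows up to 33.3% (Wilson, 29.9%). Nrf1, 1 of those 9, was among the sites just beyond the limit of 1 kb.

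Upstream sites were found on every chromosome except Y, from 8 on X to 60 on chromosome 2. They made up between 17.6% (chromosome 12) and 38.1% (X, 8 of 21) of the sites of the 4 promoter classes. The share of protein-coding genes with an upstream site ranged over the autosomes from 1.73% on chromosome 7 to 4.71% on chromosome 15, and was 0.844% on X, which is a description of this list.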

How the data were processed

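The authors trimmed the ChIP-seq reads (Trim Galore), mapped them to mm10 (BWA), combined replicates (Picard) and obtained narrow peaks from MACS. SAMtools, MACS2, deepTools and DESeq2 are also named in the submitters' processing notes, without versions. The deposited list holds positions only, in whole base pairs. Starts were read as counted from 0 and are printed counted from 1. Whether peaks were called per sample is not given in the sources used here.

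Each site was represented by its centre and assigned to the nearest of 93462 TSSs of protein-coding genes in release 21 of the GENCODE mouse annotation, which precedes the release the authors used. The 16 sites outside the 21 chromosomes were left out. Of 1033 sites centred 1 to 1000 bp upstream, 315 had an opposite-strand TSS of another gene within 1 kb and 5 an equally near TSS on the other side. CpG islands were computed from the GRCm38.p6 sequence (RefSeq) in place of the UCSC islands of the study. They were built from 200-bp windows with more than 50% G and C and a ratio of observed to expected CpG above 0.6. Passing windows that started up to 200 bp apart were joined, and the joined stretch was not checked against the limits again. Sequences printed are of the same build. Genes named were the 5 widest sites, the 3 nearest and 3 farthest members with the 3 sites beyond each limit, the 5 genes with the most sites, the widest site of each gene list, and every KMT2 subunit and histone demethylase. Some items under this rule are not reported here. Genes beyond this rule were chosen after their values were seen. The members, gene lists and motifs were chosen with earlier results of these data known. The analysis ran in Python 3.11.15 with SciPy 1.17.1, NumPy 2.4.6 and pandas 2.3.3, and figures were drawn with matplotlib 3.10.9. The classification, motif search and Fisher's exact test were tested on simulated data. The alternatives changed the TSSs, the exclusion, the upstream limit, the island definition, the window and the number of sites per gene.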

Additional observations from a re-analysis of the deposited data

How the results depend on the processing

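Because sites carry no signal, neither a stricter peak threshold nor leaving out a replicate could be tried, and the comparison of dTAG with untreated cells was not run. No paired analysis was possible because the list has no column per sample. Of 106 alternatives to 16 main results, 72 left the outcome as it was, by direction and test or, for counts, by a factor of at most 1.5, which does not show that a count of motifs held the same motifs. The alternatives with RefSeq TSSs, and gene starts for the motifs, were chosen after seeing the data. The cause of the changes below was not tested.

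The number of upstream sites, 713, became 278 with gene starts only, all of them among the 713, and 459 with a limit of 50 to 1000 bp, and was between 503 and 1028 otherwise. Differences in width that passed in no main test changed direction. For the minimum width, the odds ratio against sites 150 to 1000 bp downstream was 0.948 without the opposite-strand exclusion and 0.960 with RefSeq TSSs, and 0.969 against bidirectional sites without the exclusion. For widths of 500 bp or more, it was 1.18 (coding transcripts only), 1.17 (no exclusion), 1.10 (50 to 1000 bp), 1.46 (RefSeq TSSs) and 1.04 (1 site per gene) against sites less than 150 bp downstream, and 1.01, 1.22, 1.07 and 1.08 in the first 4 of these settings against bidirectional sites. The lower share with a CpG island than in sites 150 to 1000 bp downstream no longer passed without the exclusion (odds ratio 0.828), with RefSeq TSSs (0.747), with islands of 500 bp or more (0.749) or with the centre inside an island (0.916). For another site within 2 kb, the difference from sites 150 to 1000 bp downstream was lost with coding transcripts only (0.833), a limit of 50 to 1000 bp (0.912) and RefSeq TSSs (0.866), and turned with gene starts only (1.15). The difference from bidirectional sites then passed, with odds ratios of 1.41 (coding transcripts only), 1.61 (gene starts only), 1.82 (50 to 1000 bp) and 1.49 (RefSeq TSSs).

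Of the motifs, 3 passed against sites less than 150 bp downstream, and 1 among sites in CpG islands. Windows of 100 bp also gave 3, but AP-1 and TATA were no longer among them. Against sites 150 to 1000 bp downstream 4 passed, and 1 in windows of 100 bp, 7 in windows of 300 bp and 2 with RefSeq TSSs. Against bidirectional sites 1 passed, and 0 in windows of 100 bp or among sites in CpG islands, 5 with a limit of 50 to 1000 bp and 2 with gene starts only. ETS against sites 150 to 1000 bp downstream and NFY against sites less than 150 bp downstream passed in every alternative run. The count before the TSS was not among these alternatives, and there the NFY share was lower for upstream sites. With a limit of 50 to 1000 bp neither YY1 nor CRE passed against sites 150 to 1000 bp downstream. YY1 there turned with a limit of 50 to 1000 bp (odds ratio 0.950) and with gene starts only (0.237), and did not pass with RefSeq TSSs (1.37).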
